A study of Mus musculus with 8 samples.

Results

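The genes described are 10 members of the small heat shock protein and HSP70 chaperone system, taken by symbol: the small heat shock proteins Hspb1, Hspb6, Hspb8 and Cryab, the HSPB8 partner Bag3, the inducible HSP70 genes Hspa1a and Hspa1b, the HSP110 gene Hsph1, the J-domain gene Dnajb1 and the regulator Hsf1. Each was represented by the transcript cluster annotated to it alone, or by the brightest of them over the 8 arrays. This gave 8 of the 10 members, out of 19938 genes with such a cluster; Hspa1b and Hsf1 had none, so no level of their own is given; Hspa1b enters below through a cluster shared with Hspa1a and through its promoter. RNA came from the corpus callosum, the main white matter tract between the hemispheres, of wild-type male C57BL/6 mice labelled 8 weeks old. The cuprizone group (n = 4) had eaten 0.25% cuprizone, a copper chelator toxic to oligodendrocytes, for 1 week, and the control group (n = 4) had normal diet; each array is labelled as a biological replicate. The tissue was hand-dissected after perfusion and holds all its cell types, and in such bulk RNA a loss of cells and a lower RNA level per cell cannot be told apart.

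Small heat shock proteins are chaperones built around an alpha-crystallin domain that hold unfolding proteins without using ATP, and the HSP70 machine refolds such proteins or hands them on for degradation. J-domain proteins deliver clients to HSP70 and start its ATP cycle, and nucleotide exchange factors of the HSP110 and BAG families end it. HSPB8 and BAG3 form a complex that passes aggregating proteins to selective autophagy, and the transcription factor HSF1 drives many of these genes under heat or proteotoxic stress. In brain white matter alpha B crystallin, encoded by Cryab, is a chaperone of oligodendrocytes and astrocytes.

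Levels are log2 values of Affymetrix Mouse Gene 1.0 ST arrays after RMA (background correction, normalization between arrays and summary of the probes of a cluster). The array medians over the 23410 gene-named clusters lay between 7.44 and 7.49, and the number of arrays limits the precision. All tests of single genes are limma's, with p-values adjusted over these 23410 clusters, and a gene is said to have risen or fallen only at an adjusted p under 0.05. Levels are compared within a gene only, since probes of different clusters differ in brightness. Mature oligodendrocyte markers fell in 12 of 12 genes, and reactive astrocyte markers rose in 8 of 10. None of 10 neuron markers passed the limma threshold (1 at an unadjusted p under 0.05, Slc17a7 at -0.15), and none of 8 endothelium markers did (2 at an unadjusted p under 0.05, with Slco1a4 at -0.14 the first).

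Of the 8 measured members, Hspb8, Bag3 and Hspb6 rose with cuprizone and Cryab fell. Over all tested clusters 4.71% were called higher and 3.52% lower. Among the members 4 of 8 had groups that did not overlap, against 15.3% of all clusters. The median log2 fold change (cuprizone over control) of the 8 members was 0.42, and that of all clusters was -0.0074. The members were picked for their place in this system with earlier results on these arrays known, so these shares are given as description.

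**Figure D1:**
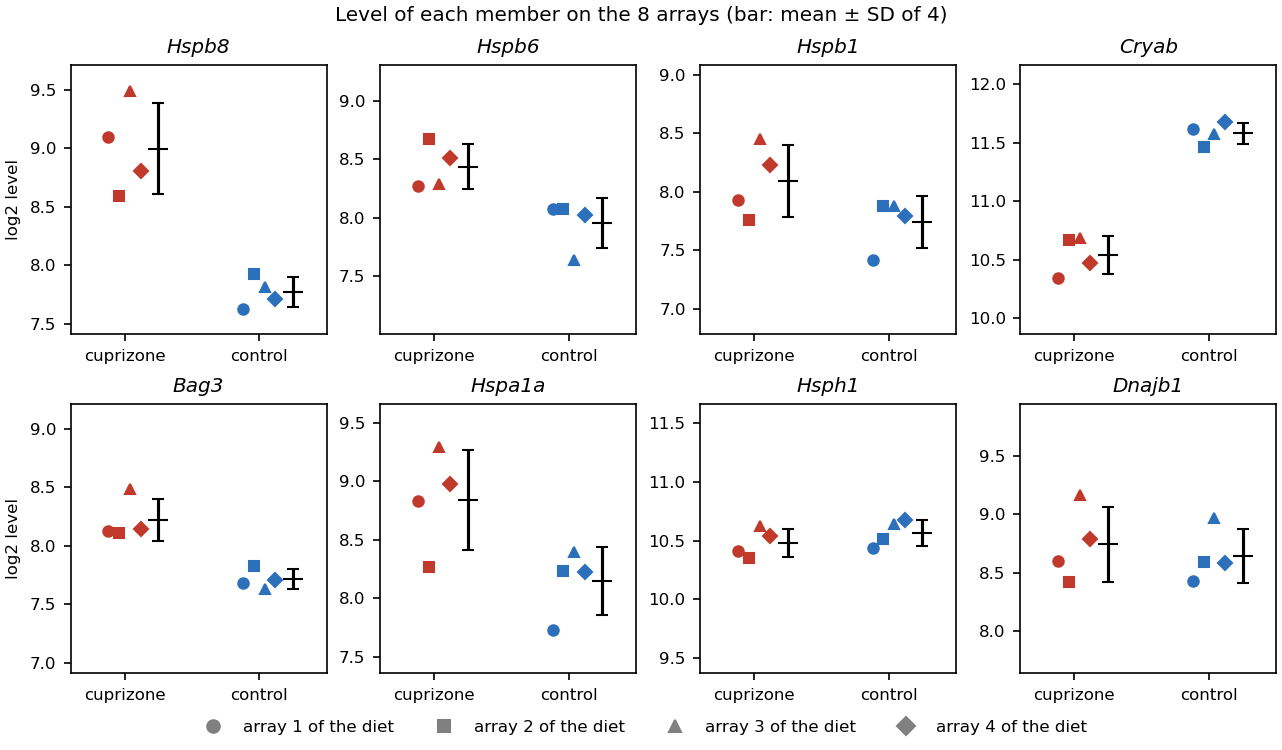
Log2 level (vertical axis, all panels spanning the same height in log2 units) of the 8 measured members on each cuprizone array (red, left) and control array (blue, right), with the mean ± SD of 4 arrays as bars and a marker shape per array. The cuprizone and control points are separate for Hspb8, Hspb6, Bag3 and Cryab and overlap for Hspb1, Hspa1a, Hsph1 and Dnajb1.

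Hspb8 (transcript cluster 10533050, GRCm38.p6 chromosome 5, 116408491 to 116422864) encodes the small heat shock protein that works with BAG3. Its log2 levels were 9.10, 8.59, 9.49 and 8.81 on cuprizone arrays 1 to 4, against 7.63, 7.93, 7.81 and 7.71 on control arrays 1 to 4. Every cuprizone array lay above every control array, with array 3 highest and array 2 lowest among the cuprizone arrays. The mean was 9.00 ± 0.39 with cuprizone and 7.77 ± 0.13 on control diet (SD, n = 4 each), a 2.34-fold rise with a log2 fold change of 1.22 ± 0.16 (SE, 95% interval 0.87 to 1.57, limma adjusted p = 0.000683). This change stood at percentile 99.7 of all tested clusters. The rise remained past the threshold under each of 20 alternatives, at 1.06 to 1.41.

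Bag3 (cluster 10557992, chromosome 7, 128523583 to 128546981) encodes the nucleotide exchange factor that couples HSPB8 and HSP70 to autophagy. Cuprizone arrays 1 to 4 stood at 8.13, 8.11, 8.49 and 8.15, against 7.69, 7.83, 7.64 and 7.71 on the control arrays. The groups were separate, and 3 of the 4 cuprizone arrays lay close together while array 3 stood above them. Bag3 rose 1.42-fold, by 0.50 ± 0.09 on the log2 scale (95% interval 0.31 to 0.70, limma adjusted p = 0.00433). Without array 3 of the cuprizone diet the log2 fold change was 0.41, still past the threshold.

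The measured rises of the 2 partners differed in size. How far either cluster lay above background is unknown, so only the measured shifts are compared here, not amounts of RNA. The log2 level of Hspb8 minus that of Bag3 was 0.78 ± 0.25 with cuprizone and 0.06 ± 0.10 in controls (SD, n = 4 each), so that the shift of Hspb8 exceeded that of Bag3 by 0.72. Over the 70 assignments of the arrays, a two-sided exact permutation test gave p = 0.0286, the smallest it can give. After adjustment over the 5 pairs of members compared it was 0.0357. The pairs were chosen with earlier results on these arrays known, so these p-values are given as description. Without control array 1 or control array 4 the unadjusted exact p was 0.0571, with differences of 0.68 and 0.70.

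Cryab (cluster 10585214, chromosome 9, 50745951 to 50756636) moved the other way. Its levels were 10.35, 10.67, 10.69 and 10.47 on the cuprizone arrays, against 11.61, 11.46, 11.57 and 11.68 on the control arrays. The groups were far apart, and the values within each group were close together. The mean was 10.54 ± 0.16 with cuprizone and 11.58 ± 0.09 in controls, which is 2.05-fold lower with cuprizone; the log2 difference was -1.04 ± 0.08 (SE, 95% interval -1.22 to -0.85, limma adjusted p = 2.8e-05). It stood at percentile 0.299 of all clusters.

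The fall of Cryab went along with that of the mature oligodendrocyte markers, whose 12 genes had a median log2 fold change of -2.15. Mog (-3.78) and Mal (-3.01), both of the myelin sheath, had the smallest p in that list. The mean log2 level of the list lay between 8.27 and 9.15 on the cuprizone arrays and between 10.92 and 11.18 on the control arrays, and its lowest single value was 5.85, for Aspa. Relative to the control mean the list stood at -2.82, -1.94, -2.16 and -2.37 on cuprizone arrays 1 to 4, and Cryab at -1.23, -0.91, -0.89 and -1.11. Array 1 was lowest and array 4 next for both, while the list was highest on array 2 and Cryab on array 3. This was not particular to the oligodendrocyte list. The means of the general astrocyte, endothelium and neuron markers also had cuprizone array 1 lowest and array 4 next. Each of the 12 markers fell by more than Cryab in point estimate, the smallest fall being that of Mbp at -1.28, and the part of the markers in the change of Cryab was not tested.

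Hspb6 (cluster 10551966, chromosome 7, 30552535 to 30555443), a small heat shock protein best known from muscle, had levels of 8.27, 8.67, 8.29 and 8.51 with cuprizone, against 8.08, 8.07, 7.63 and 8.03 on control diet. The groups did not overlap, but control array 3 stood well below the other controls and the gap between the groups was small. Hspb6 rose 1.40-fold, by 0.48 ± 0.12 on the log2 scale (95% interval 0.23 to 0.74, limma adjusted p = 0.0268). The call was the least firm of the 4. It was lost without control array 4 (limma adjusted p = 0.0519), without cuprizone array 2 (0.0582) or cuprizone array 4 (0.0719), without array 2 of both diets (0.0677) and without moderation of variances (0.129), over a range of 0.00438 to 0.129 in all alternatives.

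Hspb6 ordered the cuprizone arrays unlike the other members, being highest on array 2, where Hspb8 and Bag3 were lowest. Relative to the control mean it stood at 0.32, 0.72, 0.33 and 0.56 on cuprizone arrays 1 to 4, and the mean of the choroid plexus and ependyma markers at -0.42, 0.24, -0.36 and 0.12, in the same order. On the control arrays, Hspb6 stood at 0.12, 0.12, -0.32 and 0.07 and these markers at -0.25, 0.23, -0.43 and 0.46, with array 3 lowest for both. None of the 8 markers passed the limma threshold between the diets (2 at an unadjusted p under 0.05); Foxj1 had the smallest p (0.21 ± 0.08, limma adjusted p = 0.183). The mean level of the list lay between 7.24 and 7.90 with cuprizone and between 7.22 and 8.11 in controls, with Aqp1 lowest at 6.11. With the list mean as a covariate in limma, a setting chosen after seeing the data, Hspb6 rose by 0.53 (adjusted p = 0.00438). This was its lowest adjusted p in all alternatives. A covariate that orders the cuprizone arrays as the gene does can take up part of its scatter. The smaller p therefore adds no support to the call. Among smooth muscle and pericyte markers 1 of 10 rose, Tagln by 0.44 ± 0.08, and that list had a median of 0.07, with mean levels of 7.47 to 7.61 with cuprizone and 7.37 to 7.49 in controls.

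**Figure D2:**
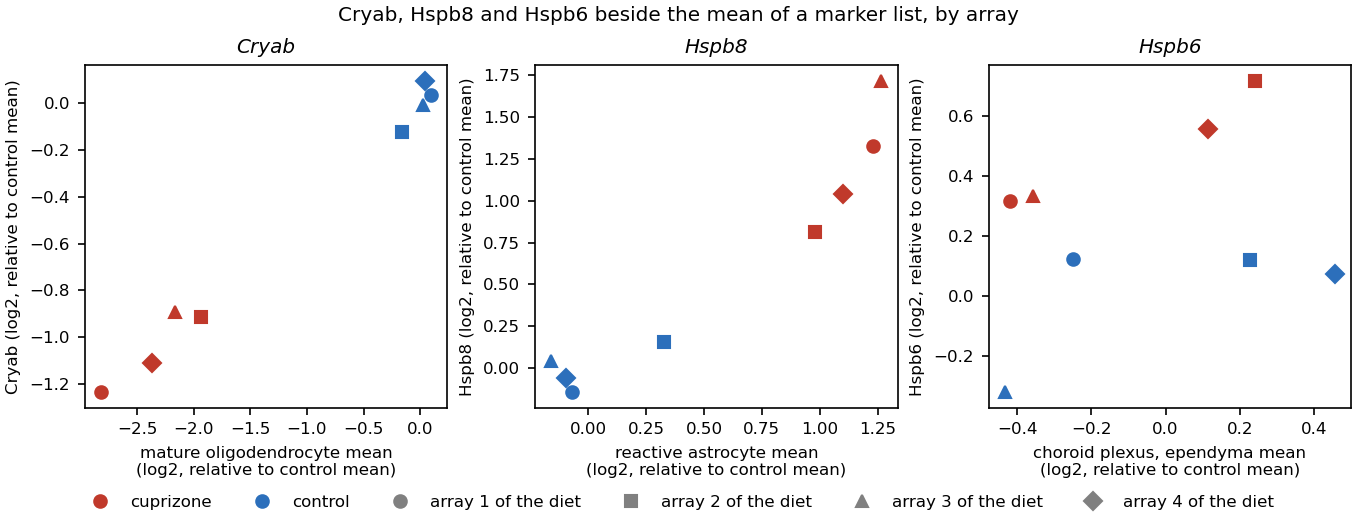
Level of Cryab (left), Hspb8 (middle) and Hspb6 (right) on each array against the mean of a marker list on the same array, both as log2 values relative to the control mean; red points are cuprizone and blue points control arrays, with a marker shape per array. Cryab lay between -1.23 and -0.89 on the cuprizone arrays where the oligodendrocyte list lay between -2.82 and -1.94. The choroid plexus and ependyma list spread more widely in controls (-0.43 to 0.46) than with cuprizone (-0.42 to 0.24).

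Hspb8 rose beside the reactive astrocyte markers, of which 8 of 10 rose and none fell, with a median of 0.91. Gfap, an intermediate filament of astrocytes, rose by 0.96 and the protease inhibitor gene Serpina3n by 1.80. The list mean lay between 8.62 and 8.90 on the cuprizone arrays and between 7.48 and 7.96 on the control arrays, with Steap4 lowest at 5.51. Relative to the control mean it stood at 1.23, 0.98, 1.26 and 1.10 on cuprizone arrays 1 to 4, where Hspb8 stood at 1.33, 0.82, 1.71 and 1.04. Array 3 was highest and array 2 lowest for both. Control array 2 was the highest control for both, at 0.33 for the list and 0.16 for Hspb8. The lowest control was array 3 for the list (-0.16) and array 1 for Hspb8 (-0.14). Microglial markers also rose, in 7 of 9 measured genes with a median of 0.57, among them Ly86 (1.18) and Tyrobp (0.94). Their mean level lay between 8.63 and 8.96 with cuprizone and between 8.20 and 8.29 in controls, with Aif1 lowest at 6.25. Relative to the control mean the microglial list stood at 0.40, 0.51, 0.73 and 0.55 on cuprizone arrays 1 to 4. Array 3 was thus highest here too, but array 1 was lowest, and control array 2 was again the highest control (0.05). General astrocyte markers moved both ways, with 3 of 10 higher and 2 lower and a median of -0.06, and the smallest p were those of the glutamate transporter Slc1a2 (-0.60) and the transcription factor Sox9 (0.43). The part of any of these cell types in the rise of Hspb8 was not tested.

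Hspb1 (chromosome 5, 135887919 to 135889563) encodes the actin-associated small heat shock protein also called HSP25 in mice. Its cluster 10408928 had levels of 7.93, 7.76, 8.45 and 8.23 with cuprizone, against 7.41, 7.88, 7.88 and 7.79 on control diet. Cuprizone array 2 fell within the range of the controls, and control array 1 stood apart below. The log2 fold change was 0.35 ± 0.15 (95% interval 0.02 to 0.68, not adjusted for the number of clusters), and the limma adjusted p was 0.206. A second cluster annotated to Hspb1 alone, 10526410, gave 0.41 ± 0.17 (limma adjusted p = 0.184), with levels of 7.87, 7.67, 8.40 and 8.24 with cuprizone, against 7.25, 7.82, 7.80 and 7.67 on control diet. The first cluster passed the threshold in no alternative; the second was tested in the main setting only.

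The 4 small heat shock proteins did not shift together. The shift of Hspb8 exceeded that of Cryab by 2.26 on the log2 scale, with Hspb8 minus Cryab at -1.55 ± 0.41 with cuprizone and -3.81 ± 0.21 in controls (SD, n = 4 each). It exceeded that of Hspb1 by 0.87, and the shift of Cryab minus that of Hspb1 was -1.39. For each of these 3 pairs the two-sided exact permutation p was 0.0286, adjusted over the 5 pairs 0.0357. For Hspb8 and Cryab this p could not have come out otherwise. Every cuprizone array lay above every control array for Hspb8 and below every control array for Cryab. That p therefore adds nothing to the calls of the single genes. All 3 pairs too were chosen with earlier results known. Between Hspb8 and Hspb6 the difference was 0.74, with Hspb8 minus Hspb6 at 0.56 ± 0.57 with cuprizone and -0.18 ± 0.27 in controls, and an exact permutation p of 0.0571 (0.0571 adjusted over the pairs).

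Hspa1a (cluster 10450369, chromosome 17, 34969359 to 34972156), the inducible cytosolic HSP70, had levels of 8.83, 8.27, 9.29 and 8.98 on the cuprizone arrays, against 7.73, 8.24, 8.40 and 8.23 on the control arrays. Of the cuprizone arrays 1, 3 and 4 lay above all controls, and array 2 lay among them. The log2 fold change was 0.70 ± 0.20 (95% interval 0.26 to 1.13), and the limma adjusted p of 0.0562 missed the threshold. Without cuprizone array 2 it was 0.89 with an adjusted p of 0.00503, and without array 2 of both diets 0.92 with 0.0113. Over all alternatives the adjusted p ranged between 0.00503 and 0.208, and 5 of 20 passed.

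Hspa1a and Hspa1b are near-identical neighbours, and probes for one may bind RNA of the other. Cluster 10450367, annotated to both and therefore outside the rule, stood at 9.61, 9.23, 10.12 and 9.79 with cuprizone, against 8.66, 9.01, 9.24 and 9.13 in controls. Cuprizone array 2 was again the one that overlapped the controls. Its log2 fold change was 0.68 ± 0.17 (limma adjusted p = 0.0348), which cannot be assigned to either gene and is not counted above.

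Dnajb1 (cluster 10573198, chromosome 8, 83608175 to 83612653), the heat-inducible J-domain partner of HSP70, had levels of 8.60, 8.42, 9.16 and 8.79 with cuprizone, against 8.43, 8.59, 8.97 and 8.59 in controls. The controls lay within the range of the cuprizone arrays. The log2 fold change was 0.10 ± 0.15, with a 95% interval of -0.24 to 0.43 (limma adjusted p = 0.799), so a change of up to 1.35-fold upward lies within the interval. Hsph1 (cluster 10535904, chromosome 5, 149616843 to 149636498), an HSP110 nucleotide exchange factor of HSP70, stood at 10.41, 10.35, 10.62 and 10.54 with cuprizone, against 10.44, 10.51, 10.64 and 10.68 in controls. Its log2 fold change was -0.09 ± 0.08 (95% interval -0.25 to 0.08, limma adjusted p = 0.608), the narrowest interval of the 8 members. Neither gene passed the threshold in any alternative.

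**Figure D3:**
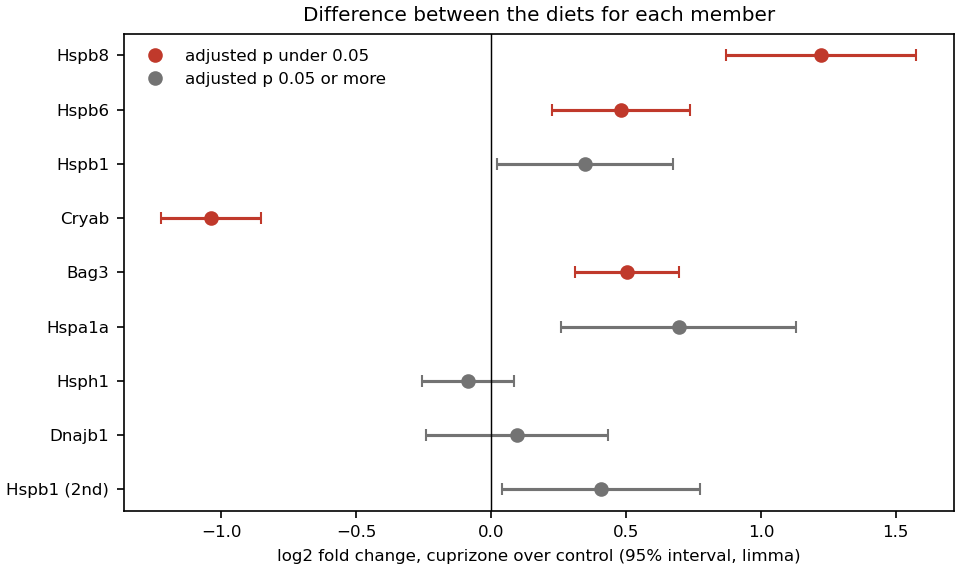
Log2 fold change of each measured member, cuprizone over control (horizontal axis), with 95% intervals from limma; the last row is the second cluster of Hspb1. Red points passed an adjusted p of 0.05, from -1.04 for Cryab to 1.22 for Hspb8, and grey points did not.

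The arrays of 1 diet differed from each other in a way that several members shared. On the cuprizone arrays 5 of 8 members, Hspb1, Bag3, Hspa1a, Hsph1 and Dnajb1, had the same order, with array 2 lowest, then 1, 4 and 3. This order was not particular to the members. The means of the ribosomal protein, HSP90 and chaperonin lists, described below, had it too. On the control arrays 3 of 8 members, Hspb1, Hspa1a and Dnajb1, had array 1 lowest, then 4, 2 and 3. The share of all clusters with either order was not counted. Between the lowest and the highest cuprizone array Hspa1a spanned 1.02, Hspb8 0.90, Dnajb1 0.74 and Hspb1 0.69 on the log2 scale, and on the control arrays Hspa1a spanned 0.67 and Dnajb1 0.54. For Dnajb1, Hspb1 (0.47 on the control arrays) and Hsph1 (0.27 and 0.24) the span within either diet was larger than the difference between the diets. For Hspa1a that of the cuprizone arrays was larger and that of the control arrays about the same size. For Hspb8, Bag3, Hspb6 and Cryab both spans were smaller than the difference.

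The within-group SD of Hspa1a, 0.36, stood at percentile 99.2 of all tested clusters, whose median was 0.10. That of Hspb8 (0.29) stood at percentile 98.3, Dnajb1 (0.28) at 98.1, Hspb1 (0.27) at 97.9 and Hspb6 (0.20) at 94.1. Bag3 (0.14), Cryab (0.13) and Hsph1 (0.12) were nearer to the middle, at 77.3, 72.9 and 61.4. The members that missed the threshold thus included 3 of the most variable ones and Hsph1, which varied little.

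Array 3, the highest of the cuprizone arrays for the 5 members with a shared order, was also the highest of them on the mean of 8 ribosomal protein genes. These were listed as a sign of RNA quality, but their mean was higher on every cuprizone array than on any control array. This mean stood at 0.20, 0.16, 0.30 and 0.21 on cuprizone arrays 1 to 4 relative to the control mean, and between -0.05 and 0.05 on the control arrays, with 2 of the 8 genes higher, Rps4x by 0.42 and Rps18 by 0.38. The mean level lay between 10.68 and 10.82 with cuprizone and between 10.46 and 10.57 in controls, with Rpl8 lowest at 8.97. Array 3 was the highest cuprizone array also on the means of the reactive astrocyte, microglia, smooth muscle and pericyte, endothelium and neuron markers. It was not the highest for the oligodendrocyte, general astrocyte or choroid plexus and ependyma markers. The part of RNA quality or of any of these lists in the order of the arrays was not tested. Leaving out cuprizone array 3 gave 1.06 for Hspb8, 0.55 for Hspa1a and 0.23 for Hspb1, and turned the sign of Dnajb1 to -0.042.

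**Figure D4:**
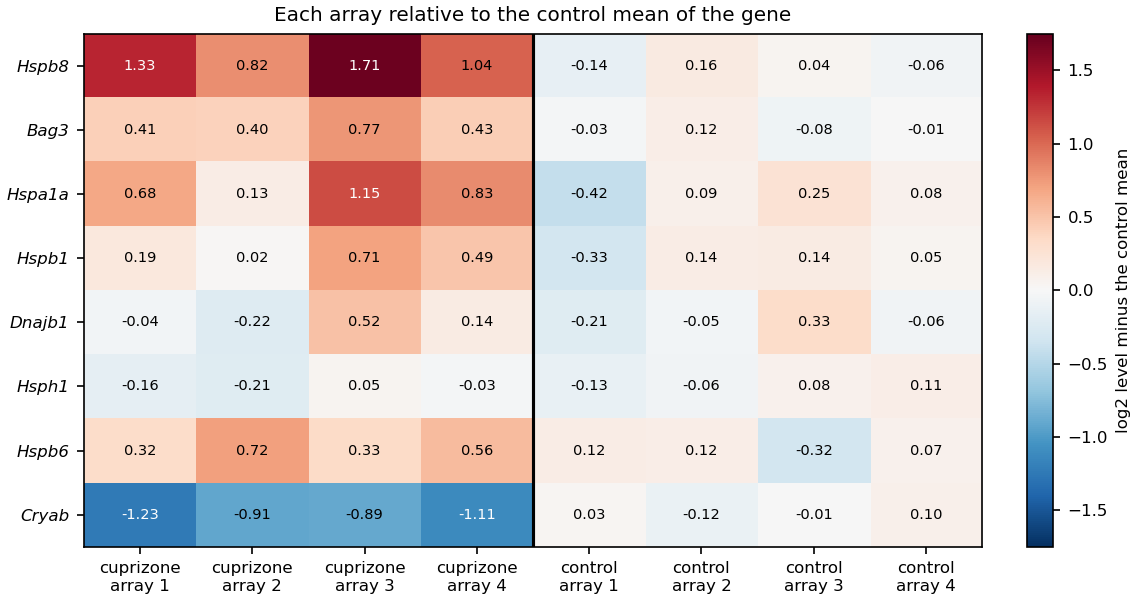
Level of each measured member on each array as the log2 difference from the control mean of the gene (colour and printed value), with the 4 cuprizone arrays left of the line and the 4 control arrays right of it. Among the cuprizone arrays, array 3 was the highest for all members but Hspb6, and Cryab was the only member below -0.5 on the cuprizone arrays.

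Promoter windows of 250 bases before to 50 after the start were taken from RefSeq (GRCm38.p6), and 8 of the 10 members matched, with 11 windows. Cryab and Hsf1 had no window, so the member that fell was not searched, while Hspa1b, which has no level of its own, was. The heat shock element to which HSF1 binds is made of inverted GAA units, searched here as GAANNTTC and TTCNNGAA, each of which reads the same on both strands. Of all 32851 windows 15.1% held at least 1 of these, and 7 of the 8 members with a window did: all but Dnajb1. The 2 shares differ in unit, since a member was counted if any of its windows matched. Dnajb1, Hspb6 and Hsph1 had 2 windows each. The following 30-base stretches are shown because they are where the members that rose, and the inducible genes beside them, held these letters, which are in capitals:
Hspb8: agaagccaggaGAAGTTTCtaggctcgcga
Bag3: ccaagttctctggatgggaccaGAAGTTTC
Hspb6: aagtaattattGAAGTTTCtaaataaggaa
Hspb1: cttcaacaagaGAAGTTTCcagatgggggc
Hspa1a: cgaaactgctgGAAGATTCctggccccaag
Hspa1b: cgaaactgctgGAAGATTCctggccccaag
Hsph1: aatgctgcagaTTCTGGAAagttctcctca

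Positions are counted with -1 as the last base before the start. The matches began at base 3 after the start in Hspb8 (chr5:116422844-116422873, minus strand, for the stretch shown) and at base 43 after it in Bag3 (chr7:128523603-128523632, plus strand). In Hspb6 the match began at -120 from the second of its starts (chr7:30553170-30553199, plus strand), in Hspb1 at -117 (chr5:135887791-135887820, plus strand), and in both Hspa1a (chr17:34972242-34972271, minus strand) and Hspa1b (chr17:34959324-34959353, minus strand) at -104. Hspb1 held a second match at -97. Hsph1 held one at -54 and, within the transcript, the one shown. In Hsph1 (chr5:149636282-149636311, minus strand) the match shown overlaps a GAANNTTC, which makes 3 units in a row. Of all windows 0.603% held 3 units, and no other member with a window did. With only the bases before the start, 12.8% of windows and 5 of the 8 members with a window held a match. The matches of Hspb8 and Bag3 dropped out. Hspa1a and Hspa1b are counted separately, although 247 of their 250 bases before the start are identical. Of the measured members with a match before the start, Hspb6 rose and Hspb1, Hspa1a and Hsph1 did not pass the threshold between the diets. A match of letters is a description and shows no binding.

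Both strands were also searched for TGANTCA, the AP-1 motif, in 7.81% of all windows, and for TGATGNAA, a core of the ATF4 response element, in 3.97%. No member window held the second. The first was in Bag3 alone among the members with a window, starting at -20. The 250 bases before the start of Bag3 (chr7:128523333-128523582, plus strand) and Hspb8 (chr5:116422865-116423114, minus strand) are printed because this pair of partners rose together; capitals mark the AP-1 letters.
Bag3: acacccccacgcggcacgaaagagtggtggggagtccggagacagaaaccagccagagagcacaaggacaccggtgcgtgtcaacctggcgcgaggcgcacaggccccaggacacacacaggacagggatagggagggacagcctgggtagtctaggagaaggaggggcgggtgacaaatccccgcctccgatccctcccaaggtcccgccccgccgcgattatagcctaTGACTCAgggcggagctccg
Hspb8: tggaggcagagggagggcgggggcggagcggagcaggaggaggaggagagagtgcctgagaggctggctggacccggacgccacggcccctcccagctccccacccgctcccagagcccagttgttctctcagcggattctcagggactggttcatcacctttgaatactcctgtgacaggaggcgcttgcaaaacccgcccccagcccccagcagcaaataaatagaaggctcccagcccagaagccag

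Other genes of the chaperone network were called at shares near those of all clusters. Over 8 lists with 97 measured genes, 7 rose (7.22%) and 2 fell (2.06%), against 4.71% and 3.52% of all clusters, and their median log2 fold change was 0.03. The count of 7 fell to 2 without control array 1 or cuprizone array 3, to 3 without control array 2 or cuprizone array 4, and to 4 without control array 3, control array 4 or cuprizone array 1. Over all clusters the number called higher fell too, from 1102 to 849 without control array 1 and to 795 without cuprizone array 3. None of the 6 other small heat shock protein genes passed the threshold in limma (0 also at an unadjusted p under 0.05) at a median of -0.07; Odf1 had the smallest p (-0.11 ± 0.07).

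Among the 12 other HSP70 and HSP110 genes 1 rose, with a median of 0.05. It was Hspa9, the HSP70 of mitochondria (0.44 ± 0.07, limma adjusted p = 0.00243), at 10.84, 10.73, 10.93 and 10.73 with cuprizone, against 10.42, 10.32, 10.48 and 10.27 on control diet. The constitutive cytosolic Hspa8 differed by 0.01. Of 21 other J-domain genes 2 rose and 1 fell, with a median of 0.02. Dnajc3 (0.28 ± 0.07) and Dnajb9 (0.33 ± 0.08), both of the endoplasmic reticulum, rose, and Dnajb2, a J-domain protein that brings ubiquitylated clients to the proteasome, fell (-0.48 ± 0.07, limma adjusted p = 0.00179). Dnajb2 stood at 8.41, 8.34, 8.57 and 8.53 with cuprizone, against 9.04, 8.79, 8.97 and 8.96 on control diet, with no overlap.

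No gene among 12 other BAG proteins and HSP70 partners passed the limma threshold (0 also at an unadjusted p under 0.05), with a median of 0.02 and Sil1 at the smallest p (-0.12 ± 0.06). Of 12 measured HSP90 and co-chaperone genes 1 rose, the glucocorticoid-inducible immunophilin Fkbp5 (0.40 ± 0.07, limma adjusted p = 0.00316), with a median of 0.05. None of the 4 genes of other heat shock factors and the HSF1 binding protein passed (limma, 0 also at an unadjusted p under 0.05), with Hsf5 at the smallest p (0.05 ± 0.07). In the list of 11 chaperonin and collagen chaperone genes 1 rose, the collagen chaperone Serpinh1 (0.34 ± 0.08), with a median of 0.05. Among 19 measured partners of BAG3 in selective autophagy, with a median of 0.02, the cargo receptor Sqstm1 (0.30 ± 0.08) and the lysosomal membrane protein gene Lamp2 (0.31 ± 0.07) rose, and Wipi1, of autophagosome formation, fell (-0.37 ± 0.05). Sqstm1 stood at 11.65, 11.51, 11.87 and 11.62 with cuprizone, against 11.37, 11.39, 11.40 and 11.30 on control diet, with array 3 highest in both diets.

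**Figure D5:**
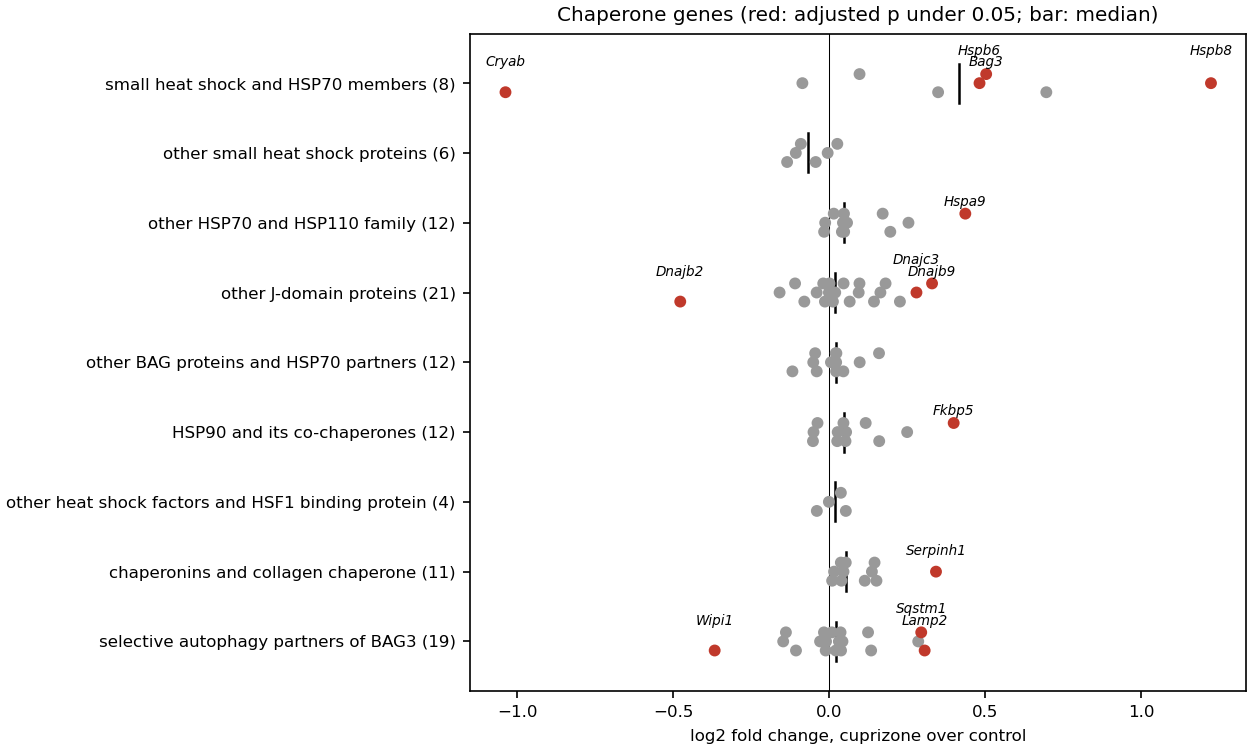
Log2 fold change, cuprizone over control (horizontal axis), of the measured members (top row) and of the genes of 8 further lists of the chaperone network (number measured in brackets); each point is a gene, red where the adjusted p was under 0.05, and the bar is the list's median. The lists other than the members have medians between -0.07 and 0.05.

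For each member that passed the threshold, the genes with the most similar profile were taken as those with the smallest root mean square distance over the 8 arrays, each gene relative to its own control mean, among 17054 named genes. For Hspb8 these were Clcf1 (distance 0.09 on the log2 scale), Anxa3 (0.10) and Ms4a6c (0.12). For Bag3 they were Olfml3 (0.06), Hnrnpf (0.07) and Spidr (0.07), and for Hspb6 they were Dock1 (0.09), Acot2 (0.10) and Cfap126 (0.10). Cryab was closest to Mcam (0.07), Lrrn1 (0.08) and the desaturase gene Scd1 (0.08). The profiles share the 8 arrays and the difference between the diets.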

How the data were processed

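Corpus callosum RNA of 4 cuprizone-fed and 4 control mice was measured on 1 array each. The deposited values are log2 levels per transcript cluster; tools named in the submitters' processing notes are RMA, Affymetrix Expression Console and Transcriptome Analysis Console, with neither version nor role; the build is not given in the sources used here. How far a cluster lay above background is unknown, since only summarised levels were analysed. Of 28944 clusters, the 23410 with a gene symbol in the platform annotation were fitted with limma (3.58.1, R 4.3.3; 2 groups, default moderation, no covariate, two-sided), with Benjamini-Hochberg adjustment over all of them; 21789 clusters had exactly 1 symbol. Errors after ± are SEs beside log2 fold changes and SDs beside mean levels. Differences between members' shifts used a two-sided exact permutation test that enumerates all 70 ways to split the arrays; of 6 pairs planned, the pair of Hspa1a and Hspa1b could not be tested. The fit was tested on simulated data.

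The members, lists, pairs and named genes were chosen with earlier results of these data known. Named were all members, up to 4 called genes per pathway list (otherwise the gene with the smallest p), the 2 called marker genes with the smallest p per list, and the 3 nearest profiles of each called member; Mbp, Hspa8, the markers given for their lowest level and the uncalled markers Foxj1, Slc17a7 and Slco1a4 were added after their values were seen. List genes without a single-symbol cluster were not analysed here. Alternatives covered pairing, each array left out, variance models, normalization, filters, clusters tested and array weights.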

Additional observations from a re-analysis of the deposited data

Results flagged for a closer look

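Among 50 groups of 4 arrays examined, 2 held an array far from the other 3, where chance alone gives about 1 in 20 groups. Bag3 stood at 8.49 on cuprizone array 3, against 8.11 to 8.15 on the other cuprizone arrays. Hspb6 stood at 7.63 on control array 3, against 8.03 to 8.08 on the other controls; without that array its log2 fold change was 0.38.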

How the results depend on the processing

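Across 20 alternatives the members called higher numbered 2 to 4 and those called lower 1, and Hspb8, Bag3 and Cryab passed the threshold in all 20. Clusters called higher numbered 632 without moderation of variances, when 2 other chaperone genes were higher; with 1 array left out that last count was 2 to 6, with fewer samples in each such fit. The sign of Dnajb1, which passed no threshold, turned to -0.042 without cuprizone array 3. Same-numbered arrays of the 2 diets had correlations of their deviations between -0.19 and 0.21, against -0.27 to 0.16 for different numbers. The largest of all was that of array 3 with array 3. Since the same numbers did not deviate together throughout, they were not taken as pairs. With the replicate number as a block (replicate block), 892 clusters were higher and 636 lower, 4 members were higher and Hspa1a had an adjusted p of 0.0399. Hspa1a also passed where dim clusters were left out, at 0.0410 above the lower quartile and 0.0342 above the median, with fewer clusters tested. Leaving out array 2 of both diets and the choroid plexus covariate were chosen after seeing the data.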
